A study of Mus musculus with 2 samples.

Results

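δ cells were taken as barcodes in which Sst (ENSMUSG00000004366), the somatostatin gene, supplied at least 5% of the UMIs (unique molecular identifiers, 1 per captured transcript) and Ins1 plus Ins2, Gcg and Ppy each supplied less than 5%. A barcode also needed at least 500 genes and at most 10% of its UMIs from mitochondrial (mt-) genes. This rule kept 1995 of 15081 barcodes, 1144 of 7792 in the WT library and 851 of 7289 in the GKO library. Barcodes with Gcg, Ins1 plus Ins2 or Ppy as the only one of these hormones at 5% or more are called α, β and γ cells below.

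The WT and GKO libraries came from littermates of strain C57BL/6N fed standard chow, and GKO mice were homozygous for a germline deletion of the ghrelin gene. For each genotype, islets of 4 mice at 8 weeks of age were pooled, dispersed, sorted for live single cells and sequenced as 1 library of transcript 3′ ends, so no difference between genotypes had a replicate and none was tested. All δ cells of a genotype share 1 pool, 1 sort and 1 library, which cannot be told apart from the genotype. The whole libraries held 158067110 UMIs in WT and 103511757 in GKO, and the δ cells held 13596077 and 9434081.

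δ cells are the somatostatin cells of the islet. Somatostatin acts on neighboring α and β cells through G protein–coupled receptors and restrains the release of glucagon and insulin. Ghrelin is a stomach and islet peptide whose receptor, GHSR, signals through Gq to phospholipase C and intracellular calcium. In the islet GHSR is known mainly from δ cells, which makes these cells a direct target of ghrelin and the question of this comparison what their transcripts look like without it.

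The promoter of Sst is a classic target of the cyclic AMP response element (CRE) binding protein, and the stretch that holds the element is shown because Sst defined the cells. It lies on the minus strand of chr16:23890845-23890924 (GRCm38.p6, RefSeq), just before the start site, with the CRE in capitals and 40 bases between the element and that site.
Sst promoter: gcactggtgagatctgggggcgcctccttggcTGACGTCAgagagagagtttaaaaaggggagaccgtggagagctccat
The letters TGACGTCA read the same on both strands. They were present in 588 of 32851 mouse promoter windows of the same table, or 1.79%, each running from 250 bases before to 50 bases after a start site. Of 31 matched promoters among the 44 δ genes described below, 1 held these letters, that of Sst.

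δ cells made up 16.1% of the 7100 WT barcodes past the filters (95% interval 15.3% to 17.0%) and 13.4% of the 6346 GKO barcodes (12.6% to 14.3%). Among barcodes with exactly 1 of the hormones, δ cells supplied 24.1% in either library, with intervals of 22.8% to 25.3% for WT and 22.7% to 25.6% for GKO. The intervals are exact binomial (Clopper-Pearson) ones. Like all intervals below, they cover counting error alone and so leave out any variation among mice and preparations. The intervals of ratios of summed UMIs given below also leave out variation among barcodes, which was large for some genes. The lower share over all barcodes was therefore not seen when the nonendocrine and multihormone barcodes were left out of the total. That total also differed in makeup, with 951 α, 2059 β and 602 γ cells in WT and 1294, 788 and 591 in GKO. An equal share of it thus does not show that δ cells kept their number relative to each other class.

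A δ cell had a median of 11092 UMIs and 3145 genes in WT and of 10197 UMIs and 3033 genes in GKO. Its depth was close to that of α cells (11814 and 11747.5 UMIs) and below that of β cells (36569 and 35290). Sst supplied a median of 18.7% of the UMIs in WT (quartiles 15.5% and 21.7%) and 18.5% in GKO (15.3% and 22.1%). The highest Sst share of a single barcode was 48.7% in WT and 38.1% in GKO. In α, β and γ cells the median Sst share was between 0.0172% and 0.0307% in either library, far below the δ threshold. The rule itself keeps these classes under that threshold, and how much of their Sst was free RNA was not tested.

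The Sst threshold lay in a sparse zone. Of barcodes that met every other criterion, 7 in WT and 2 in GKO had an Sst share between 4% and 5%, and 8 and 3 had a share between 5% and 6%. The threshold on Ppy did not. There were 118 WT and 79 GKO δ cells with a Ppy share of 4% to 5%, and 100 and 68 barcodes just outside with 5% to 6% and otherwise δ values. In all, 348 WT and 233 GKO barcodes had at least 5% of both Sst and Ppy and little Ins or Gcg. Their median depth, 10948 and 10077 UMIs, was that of δ cells and not the 21302.5 and 20846 UMIs of γ cells. Within the δ cells, Ppy ranged without a gap up to 4.99% of the UMIs, with a lowest share of 0.0149% and a median of 1.48% in WT and of 0.00964% and 1.29% in GKO.

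**Figure D1:**
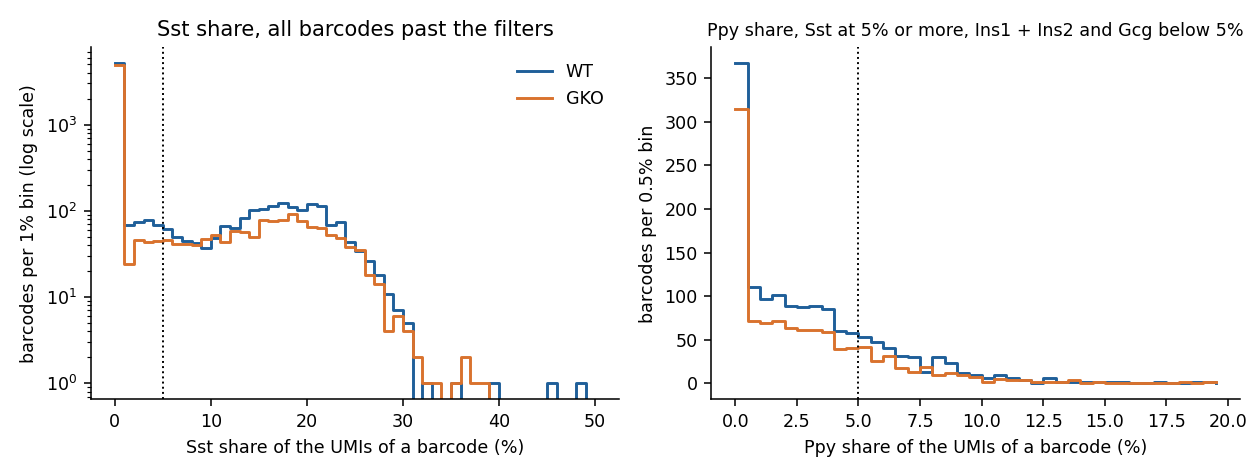
Left, number of barcodes by the share of their UMIs from Sst, in bins of 1% on a log scale. Right, number of barcodes with at least 5% Sst and under 5% insulin and glucagon transcripts by the share from Ppy, in bins of 0.5%. Blue lines are WT, orange lines GKO and dotted lines the 5% limits; Sst has a peak near 18% to 20%, while the Ppy counts run through its limit without a gap.

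The 5 δ markers were first compared with the other endocrine cells as a check of the name. Values are UMIs of a gene per 1000000 UMIs of the class (CPM), from UMIs summed over barcodes. Hhex, the transcription factor that maintains δ cell identity, was at 209.9 CPM in WT and 222.5 CPM in GKO δ cells and at no more than 7.84 CPM in any α, β or γ class. Ly6h, a Ly6 family membrane protein, was at 578 and 515 CPM against at most 15.0 CPM. Rbp4, retinol-binding protein 4, was at 5403 and 6173 CPM, with α cells next at 905 and 1048 CPM. Ghsr (ENSMUSG00000051136) was at 26.6 and 31.1 CPM and at no more than 1.07 CPM in the other classes. All 4 markers that the rule did not use were thus highest in δ cells in both libraries, and Sst itself was at 185343 and 185014 CPM.

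Ghrl (ENSMUSG00000064177) was examined next as a check of the genotype. WT δ cells held 7443 Ghrl UMIs and GKO δ cells held 0. Of the WT UMIs, 7397 sat in 1 barcode in which Ghrl supplied 16.4% and Sst 9.09% of 45097 UMIs, the deepest of all WT δ cells. The other 46 were spread over 44 barcodes with at most 2 each, or 3.39 CPM, which is near the 3.93 to 5.30 CPM of WT α, β and γ cells. Without the Ghrl-rich barcode, Ghrl was at least 10.7-fold lower in GKO δ cells, taking 3 counts over the group as the floor. The WT library as a whole held 43634 Ghrl UMIs, of which 35663 were in barcodes without a hormone of the rule. The GKO library as a whole held 280 Ghrl UMIs, of which 276 were in 1 barcode without a hormone of the rule.

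The δ profile was described by genes with at least 50 CPM in δ cells of both libraries and at least 4 times the level of α, β and γ cells in both. Of 2529 genes with that level, 44 met this (1.74%), and the lower of the 2 library ratios ran from 4.09 to 55.3. After Sst came Ly6h with a ratio of 38.6 to the next class, Bmp3 (37.0), Ptprz1 (36.6), Ppp1r17 (30.4), Spock3 (29.0) and Hhex (28.4). They were followed by Cacna2d2 (27.9), Cd24a (24.7), Fam159b (18.6), Cfap61 (17.3), Pcp4 (17.1), Mest (15.2), Mef2c (15.1) and Gap43 (13.8). Because the cells were chosen by hormone share, this is a description of the class and not a test of it.

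Several of these genes are known from neurons. Ptprz1, a receptor tyrosine phosphatase that binds pleiotrophin, was at 136 CPM in WT and 165 CPM in GKO δ cells. Gap43, a growth cone protein, was at 305 and 381 CPM. Syt1, the calcium sensor of synaptic vesicle release, was at 115 and 120.3 CPM against at most 9.88 CPM in the next class, and Rab3b, a vesicle GTPase, at 206 and 206 CPM against at most 37.2 CPM. Cacna2d2, an auxiliary subunit of voltage-gated calcium channels, was at 53.3 and 56.7 CPM. Bmp3, a secreted member of the TGF-β family, was at 62.6 and 72.4 CPM.

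**Figure D2:**
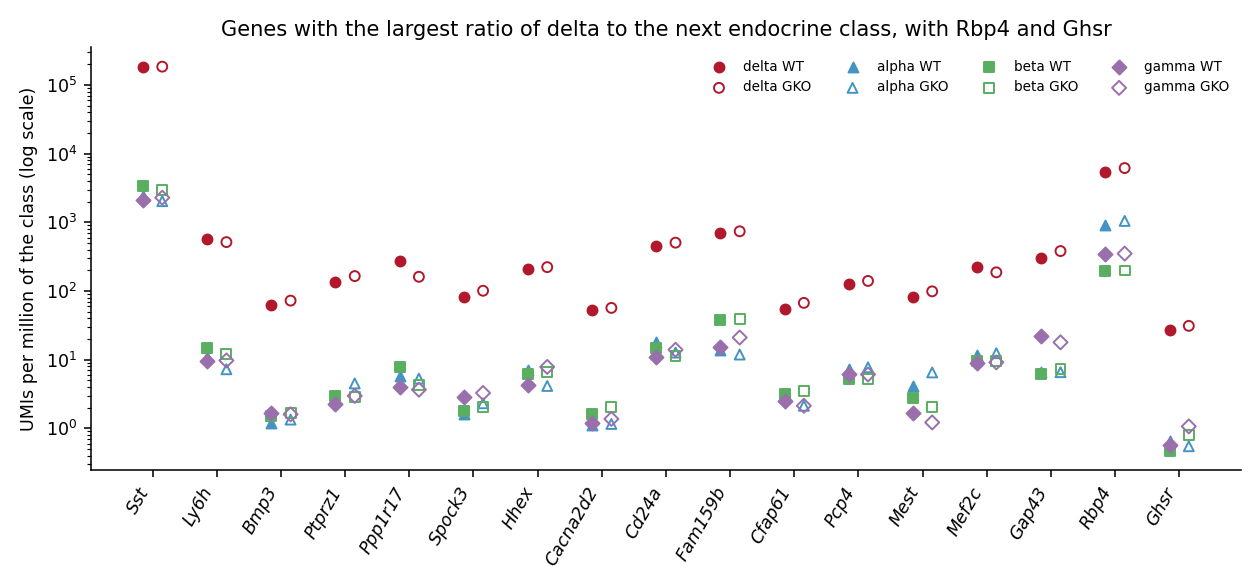
Level of the 15 genes with the largest ratio of δ cells to the next endocrine class, and of Rbp4 and Ghsr, in CPM on a log scale. Filled symbols are WT and open symbols GKO; circles are δ, triangles α, squares β and diamonds γ. Each gene's δ symbols lie above all others in both libraries.

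The receptor list placed Ghsr beside other inputs to δ cells. Only 6 of its 28 genes reached a mean of 20 CPM. P2ry1, a purinergic receptor for ADP, was at 95.2 CPM in WT and 64.3 CPM in GKO δ cells. Sstr3, a somatostatin receptor, was at 68.2 and 64.4 CPM, Ffar4, a receptor for long-chain fatty acids, at 59.1 and 73.2 CPM, Insr at 34.0 and 30.7 CPM, and Gipr, the receptor for the incretin GIP, at 22.1 and 24.2 CPM. Crhr2, the urocortin receptor of δ cells, was low at 6.546 and 6.996 CPM but did not exceed 0.402 CPM in α, β or γ cells. Glp1r was at 1.32 and 2.12 CPM.

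Of the ghrelin pathway, GHSR's downstream partners were present and similar in both libraries. Gnaq and Gna11, the α subunits of Gq and G11, were at 104 and 114 CPM in WT and 101 and 126 CPM in GKO. Itpr1, a calcium release channel, was at 255 and 268 CPM, and Plcb4 and Plcb1, phospholipases activated by Gq, at 83.5 and 38.6 CPM in WT and 92.5 and 41.0 CPM in GKO. Mboat4, which encodes the enzyme that acylates ghrelin, had 0.221 and 0.212 CPM, and Leap2, which encodes a GHSR antagonist, had no UMI in either library. Among the 8 of 14 pathway genes with a mean of at least 20 CPM, Ghrl alone was past the fold defined next. Ghrl reached that mean only through the Ghrl-rich WT barcode described above. The other WT δ cells were at 3.39 CPM, and GKO δ cells held no Ghrl UMI.

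Genotypes were compared as the log2 ratio of GKO to WT CPM with an exact Poisson interval, over 5743 genes with a mean of at least 20 CPM. A gene was past the fold with a ratio of 0.5 or more in size. Of all genes, 61 were higher (1.06%) and 99 lower (1.72%) in GKO, around a median of 0.02 with quartiles of −0.08 and 0.12. The profiles of the genotypes were thus close for most genes. In summed UMIs a large difference in a few cells and a small one in all cells cannot be told apart, so the spread over barcodes is given for the genes with the largest ratios.

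Of the 160 genes past the fold, 50 had at least 50% of their UMIs in the 1% of barcodes richest in that gene (12 in WT, 9 in GKO), counted in the library where the gene was higher. The share of such genes among all 5743 was not counted, so the 50 are not shown to be more than usual. Without the richest 1% of barcodes of each gene, 57 genes were past the fold upward (0.993%) and 85 downward (1.48%) both in that sum and in the full one. Most of the largest ratios were of the concentrated kind. Acta2, smooth muscle actin, was at 6.25 (WT) and 36.8 CPM (GKO; log2 ratio 2.56, interval 2.21 to 2.92), with 91.9% of the GKO UMIs in 9 barcodes. Mgp, a matrix protein of mesenchymal cells, was at 26.99 and 95.2 CPM (1.82, 1.64 to 2.00, 91.5%), and the class II genes H2-Ab1, H2-Aa and H2-Eb1 were at 60.4, 59.7 and 61.5 CPM in WT and 139, 136 and 132 CPM in GKO. With the other hormones each below 1%, these 3 genes were lower in GKO (−0.21, −0.37 and −0.29). On the other side, the exocrine genes Reg2, Rnase1, Reg1, Ctrl and Zg16 had ratios of −2.34 to −1.89, with 64.6% to 82.7% of their WT UMIs in 12 barcodes. With Sst at 20% or more, Reg1 turned to 0.56 and Zg16 to 0.10, and Rnase1 (−0.20) and Ctrl (−0.44) were no longer past the fold. Rgcc, a cell cycle regulator that endothelial cells express, had −1.64 (80.3%) and 2210010C04Rik, a trypsinogen-like gene, −1.52 (69.7%), or −0.03 for the latter without barcodes rich in the markers described next.

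Marker genes of other cells differed in the same directions. All 10 acinar markers were lower in GKO δ cells, with a summed level of 1392 CPM in WT and 406 CPM in GKO, Ctrb1 the most abundant in both (410 and 94.3 CPM) and none at 0. They were lower in the other classes too, with ratios of −1.83 to −0.68 in α, −3.41 to −1.03 in β and −2.26 to −0.09 in γ cells. Their median in δ cells was −1.75, or −0.20 with Sst at 20% or more and −2.40 with the other hormones each below 1%. The 7 endothelial markers summed to 204 and 90.8 CPM, and 4 of 4 with a mean of 20 CPM were lower (median −1.12, or −0.47 with the other hormones each below 1%). The 9 stellate markers summed to 315 and 560 CPM, led by Sparc in WT and Dcn in GKO, and 4 of 6 were higher (median 1.15, or 2.90 with that limit). The 8 macrophage markers summed to 409 and 699 CPM, led by Cd74 in both, and 3 of 5 were higher and Lyz2 lower. Their median was 0.93 and turned to −0.42 with the other hormones each below 1%. Without the top 1% of barcodes of each gene, the medians of these 4 lists were −0.54, −2.17, 2.36 and 1.46. These counts of markers stand beside 1.06% of all genes past the fold upward and 1.72% downward. No marker of these lists was at 0 in either library. A total of 52 WT and 34 GKO δ cells had at least 0.5% of their UMIs from such nonendocrine markers.

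Without those 86 barcodes, the acinar sum differed by −0.46 on the log2 scale instead of −1.78, the endothelial sum by −0.33 instead of −1.17, the macrophage sum by 0.39 instead of 0.77 and the stellate sum by 1.19 instead of 0.83. Gsn had a ratio of 0.24 instead of 1.63 and Bgn of 0.20 instead of 1.23, while Apoe was at 0.85 instead of 1.25 and Acta2 at 3.58 instead of 2.56. Neither call held under every class limit, since Acta2 was at 0.37 with Sst at 20% or more and Apoe at 0.37 with the other hormones each below 1%. The ratios of the exocrine genes were then between −1.09 and −0.14. These barcodes were left out for their share of the same markers, which by itself lowers the sums, and the stellate sum and Acta2 were nonetheless farther from 0. The part that captured neighbors or free RNA had in any of these ratios was not tested.

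**Figure D3:**
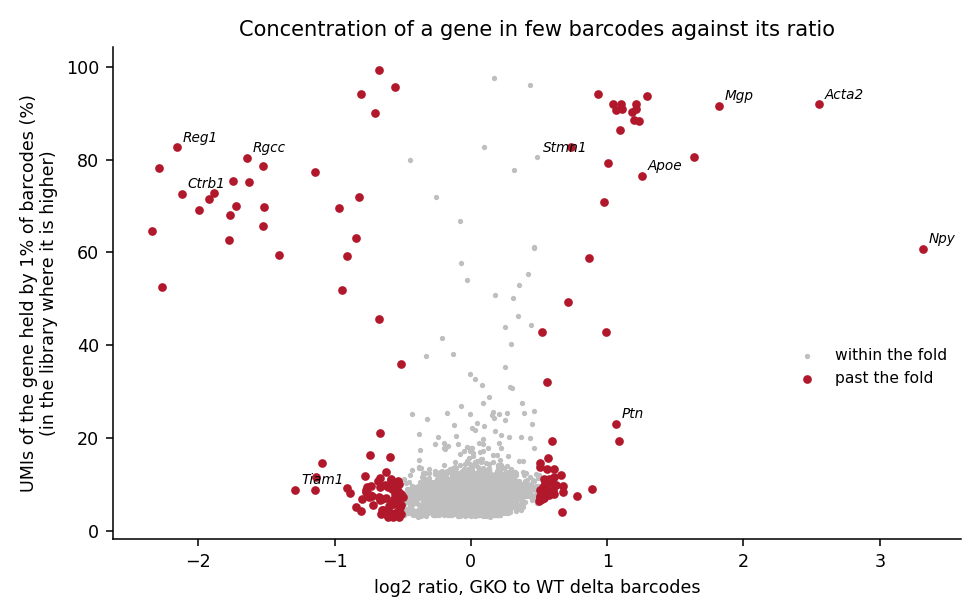
Each point is 1 of the genes with a mean of at least 20 CPM in δ cells, by its log2 ratio of GKO to WT (x axis) and the percent of its UMIs held by the 1% of barcodes richest in it, in the library where it was higher (y axis). Red points are past the fold; Ghrl, with no GKO UMI, has no ratio and is not drawn. The genes with the largest ratios sit high on the y axis, whereas Tiam1 and Ptn lie low.

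Npy, neuropeptide Y, had the highest ratio of the genes kept, at 6.03 (WT) and 59.995 CPM (GKO; 3.31, 2.98 to 3.67). It was present in 25 of 1144 WT and 45 of 851 GKO δ cells, and 26 GKO cells with 5 or more Npy UMIs held 541 of the 566. The Sst share of those 26 cells had a median of 19.7% and their depth a median of 11464.5 UMIs, like other δ cells. In WT, 6 cells had 5 or more, with 47 of 82 UMIs. Npy is also a gene of some β cells, where it was at 30.3 CPM in WT and 25.5 CPM in GKO.

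The comparison was then limited to genes with a UMI in at least 10% of δ cells, in the library where the gene was higher, once every barcode was thinned to 5000 UMIs. Of 5522 such genes, 39 were higher (0.706%) and 80 lower (1.45%), and 32 and 72 of them stayed past the fold without the barcodes rich in other markers. Among the 39, 17 were past the fold in the same direction in none of the α, β and γ classes and 4 in all 3 of them. Among the 80, these numbers were 25 and 27. The share of all genes past the fold in the other classes was not counted, so these numbers do not show whether sharing was more or less frequent than for other genes. No minimum level was set there, and Ankrd34b counted as lower in all 3 at no more than 0.865 CPM. The limit of 10% was chosen after the values had been seen. A gene can meet it through its higher library alone, so the difference itself partly decides which genes enter. Ffar2, for example, had a UMI in 9.51% of WT and 18.1% of GKO cells. Genes within the limit are called broadly detected below, and their counts are a description and not a test.

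Of the genes that the study named from these same libraries, which are therefore not independent evidence, 4 are described here, all with higher levels in GKO. Ptn, the growth factor pleiotrophin, was at 43.0 and 90.1 CPM (1.07, 0.91 to 1.22), with a UMI in 13.5% and 24.7% of cells. It was past the fold, but its ratio was 0.30 in δ cells with Sst at 20% or more, which ends the call. Its ratios were 0.34 in α, 0.67 in β and 3.17 in γ cells, the last from 1.83 and 16.5 CPM. Pde10a, a phosphodiesterase of cyclic AMP and cyclic GMP, was at 135 and 183 CPM (0.44, 0.34 to 0.53). Resp18, a granule protein of endocrine cells, was at 3958 and 4828 CPM (0.29, 0.27 to 0.30), and mt-Cytb at 3499 and 4374 CPM (0.32, 0.30 to 0.34).

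A few other broadly detected genes that were higher in GKO are given as examples, picked after their values were seen. Ffar2, a receptor for short-chain fatty acids, was at 25.4 and 47.1 CPM (0.89, 0.68 to 1.09), with a UMI in 9.51% and 18.1% of cells. Txnip, the glucose-responsive inhibitor of thioredoxin, was at 282 and 403 CPM (0.52, 0.45 to 0.58), with 0.56 in α, 0.50 in β and 0.72 in γ cells. Gnaz, an inhibitory G protein subunit, was at 33.8 and 48.4 CPM (0.52, 0.33 to 0.71). Vldlr, a lipoprotein receptor, was at 22.3 and 35.5 CPM (0.67, 0.44 to 0.90) and was not past the fold in α, β or γ cells. In α and γ cells it was at no more than 3.42 CPM.

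Tiam1 and Sh3pxd2a had the lowest ratios by interval bound among broadly detected genes outside the exocrine ones. Tiam1, an exchange factor for the GTPase Rac, was at 63.4 (WT) and 25.97 CPM (GKO; −1.29, −1.50 to −1.08), with a UMI in 22.2% and 10.9% of cells. Sh3pxd2a, a podosome scaffold, was at 47.8 and 21.6 CPM (−1.14, −1.38 to −0.92), Fam107b at 28.7 and 13.04 CPM (−1.14) and Vcan, the matrix proteoglycan versican, at 51.2 and 23.96 CPM (−1.10). The ratios of Tiam1 in α, β and γ cells were −0.45, −0.53 and −0.33, those of Sh3pxd2a −0.49, −0.90 and −0.55, those of Fam107b −0.60, −0.68 and 0.14 and those of Vcan −0.37, −0.85 and 0.11. In β cells Tiam1, Fam107b and Vcan were at no more than 2.54 CPM. Robo2, an axon guidance receptor, was at 83.8 and 50.2 CPM (−0.74, −0.90 to −0.58), and its ratios were −0.13, −0.08 and 0.12 in α, β and γ cells.

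A gene of the δ profile itself was among the lower ones. Ppp1r17, a phosphatase inhibitor also known from Purkinje cells, was at 275 and 161 CPM (−0.77, −0.86 to −0.69), with a UMI in 42.6% and 38.9% of δ cells at equal depth. Its ratios were −0.11 in α and γ cells and −0.87 in β cells. All of these came from low levels, with 5.70 and 5.29 CPM in α, 3.95 and 3.65 CPM in γ and 7.88 and 4.31 CPM in β cells. Ppp1r17 was the only 1 of the 44 δ genes past the fold downward, and the median of all 44 was 0.07. Nudt4, a phosphohydrolase of inositol pyrophosphates, was at 210.1 and 117 CPM (−0.84, −0.95 to −0.74), and P2ry1 had a ratio of −0.57 (−0.71 to −0.43).

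Of the 27 genes lower in every class, 9 were the ribosomal protein genes Rpl37a, Rps21, Rps27, Rpl41, Rpl38, Rps29, Rpl37, Rps28 and Rpl36, with δ ratios of −0.61 to −0.53, and no other of the 76 was past the fold. These 9 of 76 stand beside 1.72% of all genes past the fold downward, and the median of all 76 was −0.03. Another 8 of the 27 were pancreatic enzyme genes (2210010C04Rik, Pnlip, Clps, Cela3b, Prss2, Cpb1, Ctrb1 and Try4), with 52.4% to 75.3% of their WT UMIs in 12 barcodes. Fkbp5, a glucocorticoid-induced chaperone, was at 57.6 and 31.1 CPM in δ cells (−0.89) and had ratios of −0.83, −1.05 and −0.71 in α, β and γ cells. Basp1, a membrane protein of growing neurites, was at 312 and 178 CPM (−0.81) and was likewise past the fold in the other 3 classes.

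**Figure D4:**
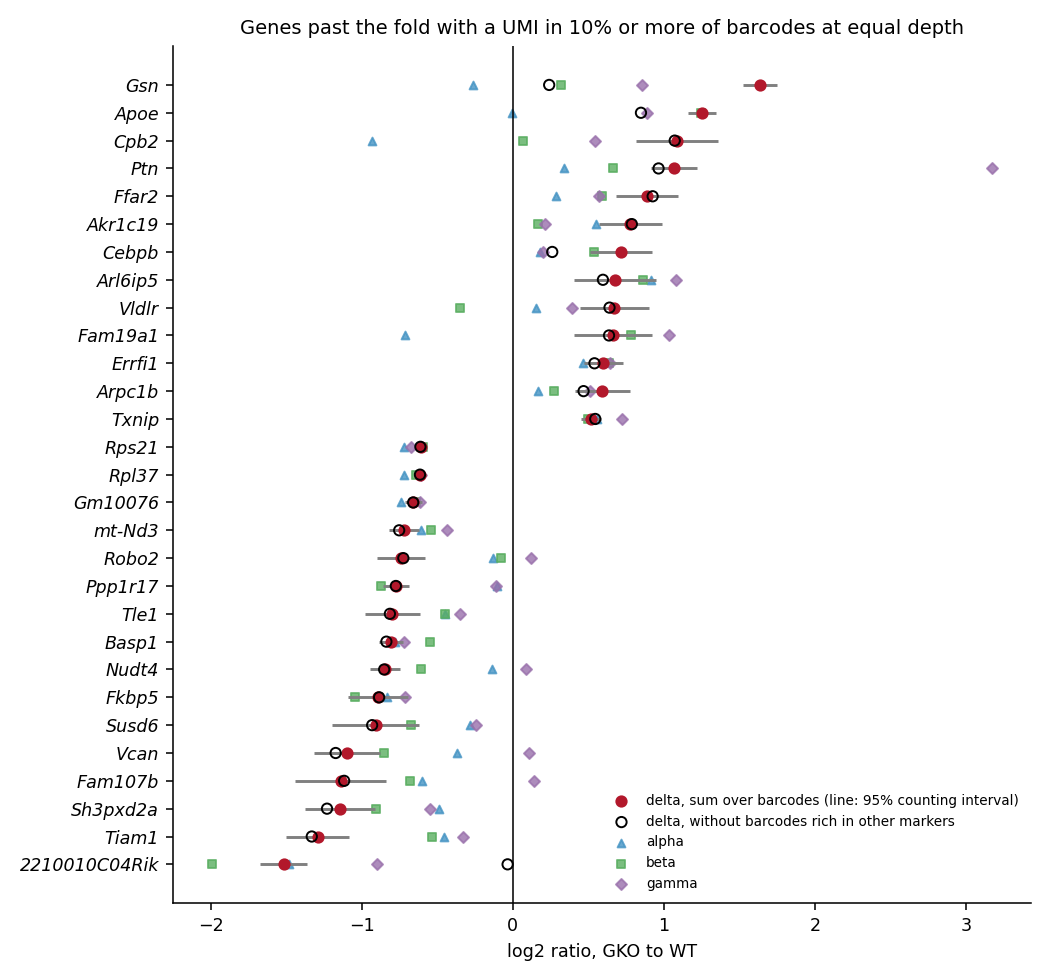
Log2 ratio of GKO to WT for broadly detected genes past the fold, 13 higher and 16 lower genes among those whose intervals lay farthest from 0. Red circles with lines are δ cells with 95% counting intervals, open circles δ cells without barcodes rich in nonendocrine markers, and triangles, squares and diamonds α, β and γ cells. Open and red circles coincide for most genes but not for Gsn, Apoe, Cebpb and 2210010C04Rik, and Rps21, Rpl37 and Fkbp5 have low ratios in every class.

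Sst, which chose the cells, had a ratio of −0.00. Of the 14 granule and prohormone genes with a mean of 20 CPM, none was past the fold, and their median was −0.05, with Pcsk2 at 2495 and 2257 CPM and Pcsk1 at 54.0 and 40.4 CPM (−0.42). Pyy, a peptide that δ cells carry beside somatostatin, was at 52328 and 49350 CPM (−0.08), and Iapp at 27410 and 30714 CPM (0.16). Of 16 exocytosis genes none was past the fold (median 0.13), with Snap25 at 98.1 and 108 CPM and Vamp2 at 111 and 122 CPM.

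None of 13 islet transcription factors was past the fold (median 0.05). This count is near what the 1.06% and 1.72% of all genes past it give, as holds for the other lists with 0 such genes. Lists with 1 such gene, of 5 to 19 genes kept, were above those shares, but 1 gene says little of a list. Pdx1, shared by β and δ cells, was at 73.5 and 91.9 CPM (0.32), Isl1 at 315 and 366 CPM (0.22), Etv1 at 349 and 284 CPM (−0.30) and Meis2 at 454 and 470.1 CPM (0.05). Of 16 ion channel genes, Kcnk3, a leak potassium channel, was past the fold, at 30.8 and 21.3 CPM (−0.53). Abcc8, the sulfonylurea receptor, was at 358 and 382 CPM. Of 19 cyclic nucleotide and G protein genes 1, Gnaz, was past the fold (median 0.09), and of 5 glucose use genes 1, Txnip (median 0.07). Of 10 peptide genes 3 were past the fold upward (median 0.08), namely Npy, Ptn and Dlk1, the last at 29.8 and 59.3 CPM (0.99, 0.81 to 1.18) with 42.7% of its GKO UMIs in 9 barcodes. No cell cycle gene of 10 reached a mean of 20 CPM.

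Stress and activity lists had medians below 0. Of all genes kept, 56.7% were above 0. The 17 genes of protein folding in the endoplasmic reticulum had a median of −0.10, 15 of them below 0 and none past the fold, with Hspa5 at 988 and 870.5 CPM and Manf at 365 and 311 CPM. The 13 immediate early genes had a median of −0.18, with Fosb at 356 and 258 CPM (−0.46) and Zfp36 past the fold upward at 24.9 and 35.6 CPM. Of 12 mitochondrially encoded genes, 9 were above 0 and the median was 0.15, yet mt-Nd3 was past the fold downward, at 206 and 125 CPM (−0.72).

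Variation among δ cells was measured as the ratio of variance to mean of UMIs over barcodes thinned to 5000 UMIs, where counting alone gives about 1. The median of 5498 genes was 1.03 in both libraries, and 125 genes were at 2 or more in both. Genes outside the hormones of the rule were ranked by the lower of their 2 library ratios. The largest were those of Cd74 (80.1 in WT, 86.7 in GKO), Apoe (68.2 and 63.4), Pyy (69.0 and 53.8), Malat1 (56.0 and 43.9), Dcn (38.4 and 42.5), Ttr (59.9 and 37.0) and Iapp (30.1 and 31.9). H2-Eb1, H2-Ab1 and Gsn (26.4 and 58.3) followed. Cd74, Apoe, Dcn, H2-Eb1, H2-Ab1 and Gsn were between 0.94 and 1.44 once barcodes rich in nonendocrine markers were left out, and 67 genes were then at 2 or more.

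Pyy, Malat1, Ttr and Iapp kept high ratios without those barcodes. Ttr, transthyretin, is a strong α cell gene (30175 CPM in WT α cells), and 57.6% of its WT and 58.8% of its GKO δ UMIs lay in 1% of the δ barcodes. Heat shock and immediate early genes also varied widely without those barcodes. Hspa1a was at 10.1 in WT and 10.7 in GKO, Hspb1 at 12.7 and 10.6, Jun at 10.7 and 11.1, Fos at 6.20 and 6.88, and Atf3 at 6.13 and 5.86. These genes are known to respond to tissue dispersal, and how much of this variation came before dispersal was not tested. Stmn1, a tubulin-binding protein, was then at 16.1 in both, and Dlk1, a Notch ligand relative that is low in other endocrine classes (at most 3.59 CPM), at 5.85 and 7.67.

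Ghsr UMIs were sparse. At full depth 279 of 1144 WT δ cells (24.4%, 21.9% to 27.0%) and 231 of 851 GKO δ cells (27.1%, 24.2% to 30.3%) had one. The share was 0.631% and 0.618% in α cells, 1.60% and 2.41% in the deeper β cells and 1.16% and 1.86% in γ cells. Free RNA, mixed barcodes and low expression in those classes were not told apart. At 5000 UMIs per barcode, the share averaged over all possible draws was 11.5% in WT and 14.3% in GKO δ cells and between 0.167% and 0.490% in the other classes. The Ghsr level was 26.6 and 31.1 CPM, a log2 ratio of 0.22 with a counting interval of −0.01 to 0.45. Without the richest 1% of barcodes the ratio was 0.25 (0.01 to 0.49). In the draw of 5000 UMIs used below, 10.8% of WT (9.09% to 12.8%) and 15.3% of GKO δ cells (12.97% to 17.95%) had a Ghsr UMI, and in a second draw 11.1% (9.33% to 13.1%) and 13.9% (11.6% to 16.4%). The level was higher in GKO under each of these measures, and whether the counting intervals included 0 or overlapped depended on the measure and the draw.

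δ cells with and without a Ghsr UMI were then compared after 1 random draw of 5000 UMIs from each barcode, so that depth could not favor either side. The draw left out 19 WT and 10 GKO cells and gave 122 cells with and 1003 without a Ghsr UMI in WT, and 129 and 712 in GKO. In 108 and 116 of the cells with a UMI there was only 1. The median of detected genes was 1885.5 with and 1862 without in WT, and 1921 and 1885.5 in GKO. A cell without a Ghsr UMI may still express the gene, since at this level most expressing cells would give none.

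Sst, which chose the cells on both sides, was at 181967 CPM with and 187478 CPM without a Ghsr UMI in WT (−0.04) and at 173854 and 187966 CPM in GKO (−0.11). Hhex was at 208 and 221 CPM in WT (−0.09, −0.36 to 0.18) and 240.3 and 233 CPM in GKO (0.05, −0.21 to 0.29). Ly6h differed by −0.03 and 0.01 and Rbp4 by 0.17 and −0.03. No gene of the delta marker, transcription factor, ghrelin pathway, receptor, ion channel, granule, exocytosis or immediate early lists was past the fold in the same direction in both libraries, which at 0.617% and 0.0268% of all genes says little of these lists.

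Of 3725 genes with at least 20 UMIs on each side in each library, 153 were higher (4.11%) and 46 lower (1.23%) with a Ghsr UMI in WT, and 132 (3.54%) and 59 (1.58%) in GKO. In both libraries 23 were higher (0.617%) and 1 was lower (0.0268%), and 7 were past the fold in opposite directions (0.188%). The minimum of 20 UMIs on the smaller side favors genes that are higher there. With a minimum of 200 UMIs over both sides together, 3 of 2800 genes were higher (0.107%) and 3 lower (0.107%).

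Nrp1, a receptor for semaphorins and VEGF, had the largest ratio, with 60.7 against 28.3 CPM in WT (1.10, 0.54 to 1.63) and 37.2 against 14.6 CPM in GKO (1.35, 0.59 to 2.07). Samhd1, a dNTP hydrolase, was at 42.6 with and 21.7 CPM without in WT and 34.1 and 18.3 CPM in GKO. Plpp3, a lipid phosphate phosphatase, followed with ratios of 0.80 and 1.20, then Sec14l1 (0.75 and 0.96), Gm6483 (0.73 and 0.79), Pef1 (0.61 and 1.08) and Pkp4 (0.62 and 0.59). Srrt, Usp45 and Nup88 completed the first 10. At the other end Hspb1, Yipf3, Raly, Ube4b, Fam96b, Tmem160, Krtcap3, Pck2 and Vps41 followed Hadha. Hadha, an enzyme of mitochondrial fatty acid oxidation, was lower, at 57.4 against 81.6 CPM in WT (−0.51, −1.05 to −0.01) and 55.8 against 85.1 CPM in GKO (−0.61, −1.15 to −0.11).

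Few of these genes recurred with another draw. A second draw of 5000 UMIs from the same cells gave 125 WT and 117 GKO cells with a Ghsr UMI and 22 genes that were higher and 5 that were lower in both libraries. Only 1 of the 23 higher genes, Trappc11, a subunit of a vesicle tethering complex, was past the fold again, and 12 of the 23 were above 0 in both libraries. Nrp1 then had ratios of 0.07 and −3.56, and 59.3% of its WT and 68.6% of its GKO UMIs came from 1% of the barcodes. Hspb1, a small heat shock protein, had −0.62 and −0.50 in the first draw and −0.24 and −0.54 in the second. Trappc11 was at 34.4 and 23.1 CPM in WT and 37.2 and 25.6 CPM in GKO in the first draw, and its intervals (−0.17 to 1.25 and −0.17 to 1.20) included 0. Hadha had −0.14 and −0.05 in the second draw and was not past the fold. Serpinh1, a collagen chaperone that is also a gene of stellate cells and had under 20 UMIs on the Ghsr side in WT, had −1.29 and −0.57 in the first draw and −0.54 and −0.69 in the second. The draws share their cells and part of their UMIs, so agreement between them is not replication.

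**Figure D5:**
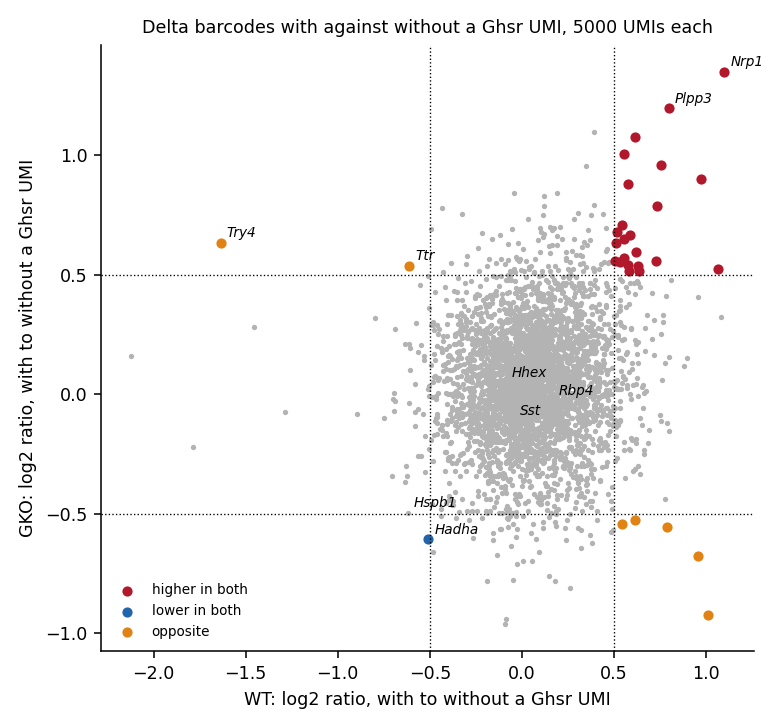
Log2 ratio of δ cells with to those without a Ghsr UMI at 5000 UMIs each, in WT (x axis) and GKO (y axis), for the 3725 genes with at least 20 UMIs on each side. Dotted lines mark 0.5 in size; red points are higher in both libraries (23), the blue point lower in both (1) and orange points opposite (7). The markers Sst, Hhex and Rbp4 lie in the middle of the cloud.

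The Ppy gradient within δ cells was looked at after the data were seen. At 5000 UMIs per cell, 452 WT and 327 GKO δ cells had a Ppy share of at least 2%, and 360 and 312 had a share below 0.5%. Sst supplied 17.6% of the UMIs in Ppy-rich and 20.0% in Ppy-poor WT cells, and 17.2% and 20.2% in GKO. A Ghsr UMI was present in 8.85% (6.40% to 11.9%) and 12.5% (9.27% to 16.4%) of these WT cells and in 14.4% (10.8% to 18.7%) and 15.7% (11.9% to 20.2%) of the GKO cells, with overlapping intervals.

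Of 5932 genes, 318 (5.36%) were at least 0.5 apart on the log2 scale in WT and 402 (6.78%) in GKO, and 13 were higher by that much in Ppy-rich cells of both libraries (0.219%) and 19 lower (0.32%). Pdyn, the precursor of dynorphin peptides, was at 44.2 CPM in Ppy-rich and 67.2 CPM in Ppy-poor WT cells (−0.60) and at 22.6 and 75 CPM in GKO (−1.73, −2.30 to −1.18). Fabp5, a fatty acid–binding protein and 1 of the 44 δ genes, was at 104 and 166 CPM in WT (−0.66, −0.92 to −0.41) and 97.2 and 152 CPM in GKO (−0.64, −0.94 to −0.35). Eef1a2, a translation elongation factor of neurons and muscle, differed by −1.07 and −0.75, and Stmn1 by −0.87 and −2.14. Plpp3 (−0.86 and −1.38) and the endothelial marker Plvap (−1.74 and −0.67) were lower as well, and the part of endothelial RNA in these differences was not tested. Apoe was higher in Ppy-rich cells (1.43 and 1.83), and it is also a gene of macrophages and stellate cells, whose part here was not tested.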

How the data were processed

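The authors sequenced 10x 3′ libraries (kit v3.1) of sorted islet cells and counted UMIs with Cell Ranger (5.0.1 per the file headers; build mm10 per the submitters' processing notes). The deposited values are UMI counts per gene and barcode before CellBender, so free RNA remains. Class rules were read from the barcodes' own counts; 18 barcode sequences occurred in both libraries, 0 among δ cells. No doublets were removed in the main values. UMIs were summed per library and class and scaled to CPM over 13596077 and 9434081 δ UMIs; log2 ratios have 95% exact conditional Poisson intervals and shares Clopper-Pearson intervals. Each genotype had a single library, so nothing was tested. Sums, ratios and thinning were tested on simulated data. Genes named are the markers and Ghrl, genes the study named, the 10 largest rises and falls by the interval bound nearest 0 (without hormone and other cell type markers), the 15 largest δ ratios, the 10 largest variances, the 10 most and least Ghsr-associated genes, and list members past the fold or as examples; some genes these rules name are not reported here. The comparisons of genes with a UMI in 10% of cells and of Ppy-rich with Ppy-poor cells were chosen after values were seen. Members and lists were chosen with earlier results of these data known. Alternatives covered the class limits, scaling, thinning and filters. The tools were scipy 1.17.1 and numpy 2.4.6 under Python 3.11.15, with scanpy 1.11.5 for doublet scores in an alternative and edgeR 4.0.16 for TMM.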

Additional observations from a re-analysis of the deposited data

Results flagged for a closer look

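Barcodes with at least 5% of both Sst and Ppy lay outside the rule, and above only their number and depth were given. Their Ghsr shares were near those of δ cells. At 5000 UMIs per barcode, 11.4% of 343 WT barcodes (8.21% to 15.2%) and 13.0% of 230 GKO barcodes (8.98% to 18.1%) had a Ghsr UMI, against 0.832% and 0.340% of γ cells. Their levels were 22.9 and 26.3 CPM for Ghsr, 196 and 174 CPM for Hhex, and 534 and 437 CPM for Ly6h.

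In the GKO library 1 barcode without a hormone of the rule had 276 Ghrl UMIs, whereas no other GKO barcode had more than 1.

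With against without a Ghsr UMI, 7 genes were past the fold in opposite directions in the libraries, and the difference was not tested. The WT and GKO ratios were 0.79 and −0.56 for Esf1, 0.54 and −0.54 for Cdk8, −1.63 and 0.63 for Try4, 0.62 and −0.53 for Rbm26, 1.01 and −0.93 for H2-Ab1, 0.95 and −0.68 for H2-Eb1, and −0.61 and 0.54 for Ttr. In the second draw of 5000 UMIs, Try4 alone was past the fold in opposite directions again (−1.03 and 0.87). H2-Ab1 (−2.63 and −4.49), H2-Eb1 (−2.88 and −2.50) and Cdk8 (0.23 and 0.28) then had the same sign in both libraries, Rbm26 had −0.43 and 0.18, Esf1 0.47 and −0.61, and Ttr −0.41 and 0.29.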

How the results depend on the processing

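Limits of 1000 genes and leaving out the 5% of δ cells with most UMIs changed no count by over 1.5 times and no δ or Ghsr share beyond its interval. The δ shares were 6.54% in WT and 5.25% in GKO with Sst at 20% or more, 5.93% and 5.81% with the other hormones each below 1%, and 21.0% and 17.1% with no limit on Ppy, which only widens or narrows the class. The Ghsr shares were 4.64% and 6% at 2000 UMIs, 6.41% and 8.24% at 2000 UMIs outside hormone genes, 22.8% and 25.2% at 10000 UMIs, and 24.4% and 27.1% without thinning. Genes higher and lower in GKO numbered 6 and 26 at a mean of 100 CPM, 1459 and 1116 without a filter beyond 10 UMIs, 19 and 24 at a fold of 1, and 96 higher after thinning to 5000 UMIs. Counts under TMM, median of ratios, other totals and the mean per barcode stayed within 1.5 times, as did the 11 lists whose median lay 0.1 or more from that of all genes. The scalings moved the median of all genes to between −0.01 and 0.03.

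δ genes numbered 147 at 2 times and 22 at 8 times. Genes with a variance of 2 or more times the mean numbered 52 with Sst at 20% or more, 67 without barcodes rich in nonendocrine markers and 63 at 2000 UMIs. With against without a Ghsr UMI, genes higher and lower in both libraries numbered 8 and 0 with Sst at 20% or more, 15 and 3 with the other hormones below 1%, 35 and 12 at 10000 UMIs, 8 and 0 at 2000 UMIs outside hormone genes, 3 and 3 with 200 UMIs over both sides and 1 higher at 2000 UMIs. Genes lower in both numbered 7 with up to 20% mitochondrial UMIs, 3 without the highest doublet scores, 0 without barcodes rich in nonendocrine markers, and 5 with no limit on Ppy and with the second draw. At most 3 of the 23 higher genes recurred under any of these alternatives other than the 1000-gene limit, under which all 23 did.

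Calls were also lost without a reversal. With Sst at 20% or more, Ptn was at 0.30, Acta2 at 0.37, Gsn at 0.24, Rnase1 at −0.20 and Ctrl at −0.44. Apoe was at 0.37 with the other hormones below 1%, and H2-Aa at 0.36 without the 5% of cells with most UMIs. Without barcodes rich in nonendocrine markers, H2-Eb1 was at 0.45 and Gsn, Bgn, Rnase1, Reg1, Ctrl and 2210010C04Rik were within 0.36 of 0, and without the richest 1% of barcodes Reg1, Ctrl and 2210010C04Rik were within 0.45 of 0. With Sst at 20% or more, Bgn reversed to −0.46, Reg1 to 0.56, Zg16 to 0.10 and 2210010C04Rik to 0.000548. With the other hormones below 1%, H2-Ab1 reversed to −0.21, H2-Aa to −0.37, H2-Eb1 to −0.29 and the macrophage median to −0.42; the cause was not tested. In the Ghsr comparison, taking the library nearer 0, Nrp1 reversed to −2.10 with up to 20% mitochondrial UMIs, −0.75 without the highest doublet scores, −1.94 at 2000 UMIs and −2.76 at 2000 UMIs outside hormone genes. Samhd1 reversed to −0.31 with Sst at 20% or more, −0.17 with the other hormones below 1%, −0.37 at 2000 UMIs and −0.49 outside hormone genes. Sec14l1 reversed to −0.10 with up to 20% mitochondrial UMIs, −0.16 without barcodes rich in nonendocrine markers and −0.10 at 2000 UMIs, Plpp3 to −0.88 with up to 20% mitochondrial UMIs, Pef1 to −0.35 at 2000 UMIs and Nup88 to −0.14 at 10000 UMIs. The limit of 0.5% for nonendocrine markers, the open Ppy limit, the gene-wise trim and the minimum of 200 UMIs were chosen after seeing the data. No paired analysis was possible because each genotype had 1 library, and none could be left out.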
